A study of Mus musculus with 2 samples.

Results

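Fatty acid oxidation and ketogenesis were described through 35 named genes of the mouse duodenum, of 43346 gene rows in each of 2 deposited tables. The members were taken by gene symbol: 5 regulators and regulated targets, 6 genes of fatty acid activation and acyl-CoA hydrolysis, 4 of the mitochondrial carnitine shuttle, 10 of mitochondrial beta-oxidation, 3 of electron transfer, 6 of peroxisomes and 1 of ketone bodies. All 35 were found in both tables, and all passed the filter of a mean count of at least 10. The tissue was duodenum of C57BL/6J mice at 8 weeks of age, pooled from males and females of the same litters, with health state unknown. Polyadenylated, ribosome-depleted RNA over 200 nucleotides was read as stranded pairs of 76 nucleotides, in 1 group of 2 biological replicates, called replicate 2 and replicate 1. Both carry the same donor entry, and nothing says that their animals were separate, so every difference given is a difference between 2 libraries and its spread may be technical in part.

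Beta-oxidation cuts fatty acids into acetyl-CoA, 2 carbons at a time. Fatty acids are first joined to coenzyme A, then pass into mitochondria as carnitine esters through Cpt1a, Slc25a20 and Cpt2, while very long and branched chains are shortened in peroxisomes. Electrons leave through the electron transfer flavoprotein, the acetyl-CoA can be made into ketone bodies, and the nuclear receptor Ppara with its coactivator Ppargc1a is known to switch on many of these genes in fasting. In the small intestine, enterocytes receive large amounts of dietary fat, most of which is re-esterified and exported rather than oxidised.

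The libraries stood apart before any member was considered. Replicate 2 held 44710137 expected counts over genes and replicate 1 held 44272208, and a count of 0 allows up to 3 counts, or 0.0671 CPM (counts scaled to a common total) in replicate 2 and 0.0678 CPM in replicate 1. The 25 markers of exocrine pancreas, stomach and Brunner's gland summed to 0.0238% of all TPM (a level per transcript length, scaled to the same total in each library) in replicate 2 and to 10.5% in replicate 1, and all 25 were called higher in replicate 1. Enterocyte markers summed to 30760 TPM in replicate 2 and 14226 TPM in replicate 1, with 9 of 14 called higher in replicate 2 and 1 (Alpi) in replicate 1. White adipocyte markers summed to 1194 TPM in replicate 2 and 391 TPM in replicate 1, with 8 of 9 called higher in replicate 2 and Retn at 0 counts in replicate 1. Brown adipocyte markers stayed at a sum of 0.71 TPM in replicate 2 and 1.38 TPM in replicate 1. The part of these tissues in the results that follow was not tested, and in bulk tissue fewer cells of a type and less RNA per cell cannot be told apart. The common biological coefficient of variation between the libraries was 0.53 over 15921 genes.

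The sequences that matter for reading the members are those of genes that share bases and of a short transcript that carries a call. Acot1 and Acot2, neighbours on chromosome 12, encode a cytosolic and a mitochondrial acyl-CoA thioesterase, and Acaa1a and Acaa1b on chromosome 9 encode a pair of peroxisomal 3-ketoacyl-CoA thiolases. Reads are 76 nucleotides long, and 19.6% of the 76-base words of the Acot1 transcript also occur in Acot2, while 27.0% of those of Acaa1a occur in Acaa1b. The Acot1 model used here is 2272 nucleotides long, whereas the version in the deposited tables has 1559, so its share there may be higher. The following lines give 90 coding bases of each in GENCODE M21, with capitals at the bases that differ between the members of a pair. For Acot1, Acaa1a and Acaa1b they are the first 90 coding bases, and for Acot2 they are coding bases 124 to 213, since Acot2 has 41 more codons in front.
Acot1: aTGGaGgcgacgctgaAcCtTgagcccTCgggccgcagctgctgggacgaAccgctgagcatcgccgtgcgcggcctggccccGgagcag
Acot2: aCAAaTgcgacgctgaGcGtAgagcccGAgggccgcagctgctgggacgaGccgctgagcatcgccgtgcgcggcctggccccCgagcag
Acaa1a: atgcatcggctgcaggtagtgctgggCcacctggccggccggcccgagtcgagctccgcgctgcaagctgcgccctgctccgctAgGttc
Acaa1b: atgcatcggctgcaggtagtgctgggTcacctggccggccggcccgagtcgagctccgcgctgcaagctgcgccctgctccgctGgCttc
The Acot stretches share 79 of 90 bases and the Acaa1 stretches 87 of 90, so a read from the start of an Acaa1 coding sequence may meet few distinguishing bases. The authors' quantifier shared ambiguous fragments out between genes. Its deposited posterior SD was 3.72 counts for Acot1 in replicate 2 and 7.41 in replicate 1, and for Acaa1a 25.9 counts in replicate 2 and 18.0 in replicate 1. Those are small against the counts of these genes, given with their levels further on, but they hold only under the quantifier's own model.

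Between the libraries, 7 of 35 members were called, and 28 were not. A gene was called where an exact two-sided binomial test, given library sizes scaled by TMM (trimmed mean of M values), passed an adjusted p of 0.05 over all 15921 genes tested and the scaled ratio was at least 2-fold. This compares 2 libraries and not conditions. The TMM library size of replicate 2 was 0.857 of that of replicate 1, whereas total gene counts stood at 1.01. The deposited length of a gene also differed between the libraries for some members. That of Crat was 1903 nucleotides in replicate 2 and 1278 in replicate 1. A gene's TPM and its scaled ratio can therefore differ in size or direction. Vnn1, Slc27a4, Acaa1a and Angptl4 were higher in replicate 2, which is 4 of 35 beside 11.5% of all genes tested. Cpt1a, Acot1 and Etfdh were higher in replicate 1, which is 3 of 35 beside 14.6% of all genes, and 26.1% of all genes were called in either direction. The members' shares lie near or below that background. The members' median log2 ratio, replicate 2 over replicate 1, was 0.04, against -0.04 over all genes tested, and 19 ratios lay above 0 and 16 below. Just inside the limit stood Etfdh at 2.09-fold and Acot1 at 2.25-fold, and just outside it stood Acaa1b at 1.95-fold, Crat at 1.62-fold and Eci1 at 1.56-fold.

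**Figure D1:**
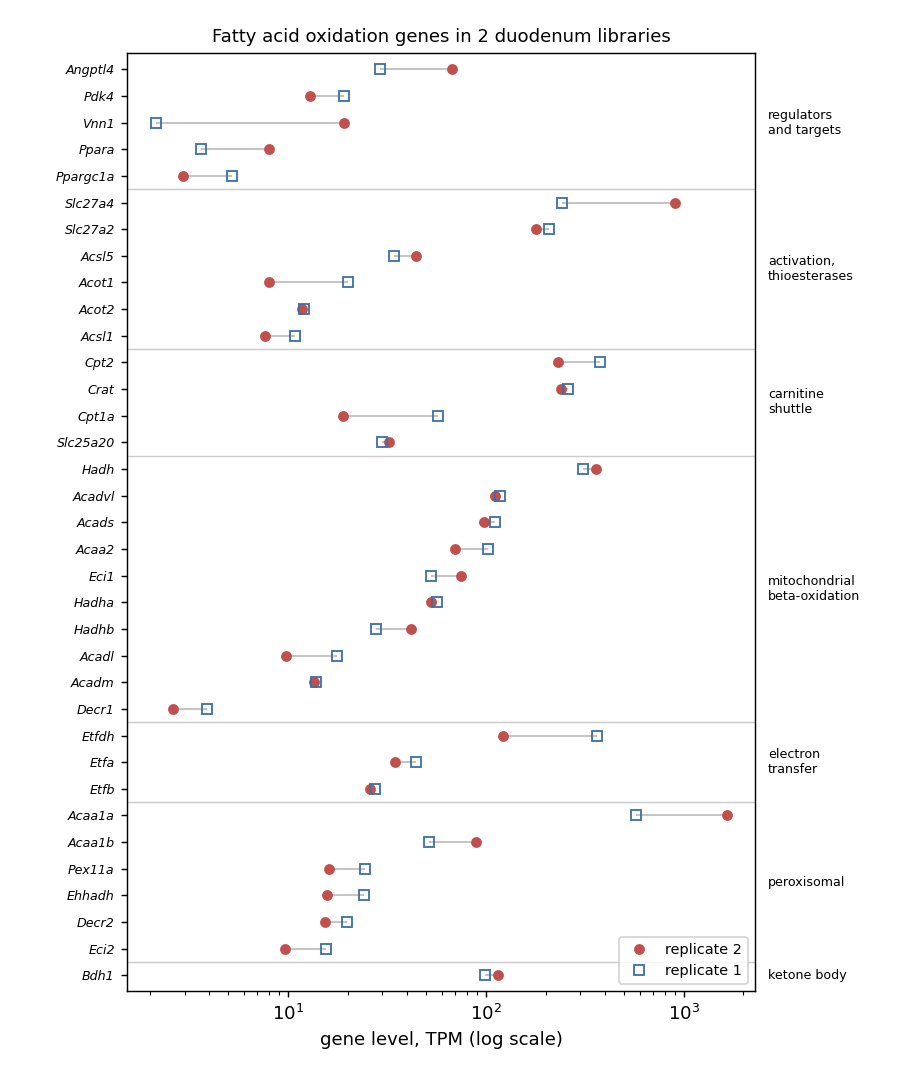
Level of each of the 35 members in TPM (log scale) in replicate 2 (filled circles) and replicate 1 (open squares), ordered by role and, within a role, by mean TPM. Acaa1a and Slc27a4 stand highest in replicate 2, at 1646 and 904 TPM, and Decr1 lowest there, at 2.63 TPM.

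Summed over the 35 members, the level was 4710 TPM in replicate 2 and 3362 TPM in replicate 1, averaging 4036 ± 953 TPM (SD, n = 2). That higher sum in replicate 2 rested on a pair of genes. Acaa1a and Slc27a4 took 54.1% of the members' TPM in replicate 2 and 24.1% in replicate 1, and the other 33 members summed to 2160 TPM in replicate 2 and 2550 TPM in replicate 1, with the order turned round. In the plot of levels by member, Vnn1, Slc27a4, Cpt1a, Etfdh and Acaa1a had the widest gaps, and the 10 beta-oxidation genes lay closer together.

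Gene-level values add up all transcripts of a gene, including those that GENCODE does not annotate as protein coding, and for some members these held most of the level. In 7 of 35 members (20%) less than 50% of the TPM fell on protein-coding transcripts in both libraries, against 12.7% of the 10678 protein-coding genes that reached a TPM of 1 in both. They were Ppargc1a, Pdk4, Angptl4, Acadvl, Acadl, Etfdh and Acaa1a. By counts rather than TPM, which weights short transcripts less, only Angptl4 was under 50% in both libraries, and 3 more members were so in replicate 1 alone. By TPM, 21 members had at least 90% on protein-coding transcripts in both libraries. Some of these, such as Cpt1a, Acaa2 and Vnn1, had only 1 transcript quantified, so their share was fixed at 100% by annotation. Recomputed on protein-coding transcripts only, an alternative chosen after the transcript tables were seen, 3 members were higher in replicate 2 and 2 in replicate 1, beside 12.2% and 14.3% of 14233 genes, or 26.5% in either direction. The calls of Angptl4 and Etfdh were the ones lost. Transcript levels rest on how the quantifier divided fragments among overlapping transcripts.

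**Figure D2:**
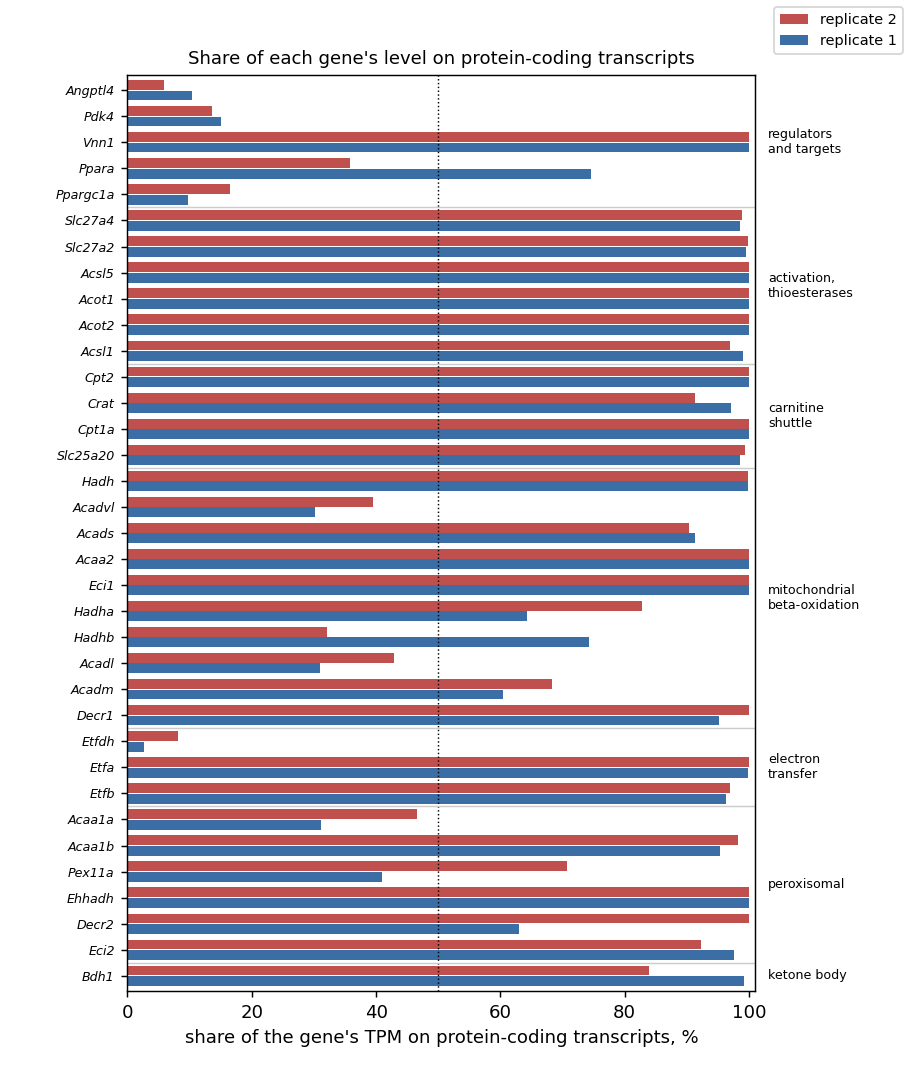
Share of each member's TPM on transcripts annotated as protein coding, in percent, in replicate 2 (upper bars) and replicate 1 (lower bars), with a dotted line at 50%. Etfdh stands at 8.18% in replicate 2 and 2.65% in replicate 1. Genes such as Cpt1a, Acaa2 and Vnn1, each with only 1 transcript quantified, stand at 100% in both.

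Of the regulators and regulated targets, Vnn1 and Angptl4 were called and Ppara, Ppargc1a and Pdk4 were not. Vnn1, a membrane-bound pantetheinase that splits pantetheine (chr10:23894688-23905343, mm10), had 19.2 TPM and 1675 counts in replicate 2, against 2.15 TPM and 196 counts in replicate 1. That was 9.97-fold higher in replicate 2 (95% interval 8.59 to 11.6, exact Clopper-Pearson, counting error only), the widest ratio among the members. Only 1 transcript of Vnn1 was quantified, a protein-coding one. Angptl4, a secreted inhibitor of lipoprotein lipase (chr17:33773750-33781830), had 67.3 TPM in replicate 2, against 29.0 TPM in replicate 1, which was 2.51-fold on scaled counts. Most of that was a transcript of 1859 nucleotides annotated as subject to nonsense-mediated decay, with 63.0 TPM in replicate 2 and 25.8 TPM in replicate 1. Its protein-coding transcript had 3.97 TPM in replicate 2 and 2.99 TPM in replicate 1, 1.49-fold and not called. Most white adipocyte markers and most enterocyte markers were called higher in replicate 2 too, as given above. The part of either cell type in the Angptl4 difference was not tested.

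Ppara, the fatty acid sensing nuclear receptor, was low. It had 8.05 TPM in replicate 2 and 3.65 TPM in replicate 1, but its counts were 334 in replicate 2 and 309 in replicate 1, 1.26-fold on the scaled scale. The difference in TPM came from a processed transcript of 367 nucleotides with 29.4 counts in replicate 2 and 6.82 in replicate 1, and protein-coding transcripts alone gave 2.88 TPM in replicate 2 and 2.72 TPM in replicate 1. Ppargc1a, the coactivator that drives mitochondrial gene expression, had 2.96 TPM in replicate 2 and 5.23 TPM in replicate 1, of which 0.49 TPM in replicate 2 and 0.51 TPM in replicate 1 lay on protein-coding transcripts. Pdk4, a kinase that shuts off pyruvate dehydrogenase and so spares glucose, had 12.9 TPM in replicate 2 and 19.2 TPM in replicate 1, mostly a retained-intron transcript. Neither Ppargc1a nor Pdk4 reached the 2-fold limit, at 1.37-fold and 1.47-fold higher in replicate 1.

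Activation of fatty acids was dominated by the transport proteins. Slc27a4, the fatty acid transport protein with acyl-CoA synthetase activity that enterocytes use (chr2:29802634-29817522), had 904 TPM and 136239 counts in replicate 2, against 242 TPM and 37696 counts in replicate 1. It was 4.22-fold higher in replicate 2 (95% interval 4.17 to 4.26) and ranked 163rd by TPM there and 509th in replicate 1. Of the 14 enterocyte markers, 9 were called higher in replicate 2 too and 4 were not called. Alpi was called the other way, with 1568 TPM in replicate 2 and 7153 TPM in replicate 1. The part of enterocytes in the Slc27a4 difference was not tested. Slc27a2, a related very long chain acyl-CoA synthetase, had 179.0 TPM in replicate 2 and 208 TPM in replicate 1, only 1.03-fold apart on scaled counts. The long chain acyl-CoA synthetases stood at lower levels. Acsl5 had 44.5 TPM in replicate 2 and 34.4 TPM in replicate 1. Acsl1 had 7.68 TPM in replicate 2 and 10.9 TPM in replicate 1. Acsl5 therefore stood 5.79 times above Acsl1 in replicate 2 and 3.16 times in replicate 1.

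The thioesterases, which release free fatty acids from coenzyme A, differed from each other. Acot1 had 8.05 TPM and 429 counts in replicate 2, against 20.1 TPM and 1126 counts in replicate 1, which was 2.25-fold higher in replicate 1 (95% interval 2.01 to 2.52). Acot2, next to it on the chromosome and sharing the sequence printed above, had 11.8 TPM and 924 counts in replicate 2, against 12.0 TPM and 983 counts in replicate 1. The level of Acot1 over Acot2 was 0.685 in replicate 2 and 1.68 in replicate 1, so the order of the pair turned round between the libraries. Whether the difference between the 2 genes' ratios exceeds the spread between animals cannot be told from 2 libraries.

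The carnitine shuttle held a call in its entry step. Cpt1a, the carnitine palmitoyltransferase of the outer mitochondrial membrane that is known as the rate-limiting step of mitochondrial fatty acid oxidation (chr19:3322334-3385733), had 19.0 TPM and 3083 counts in replicate 2, against 56.95 TPM and 9580 counts in replicate 1. It was 2.66-fold higher in replicate 1 (95% interval 2.56 to 2.77). Only 1 transcript of Cpt1a was quantified, a protein-coding one, so its share there was fixed by annotation. The exocrine pancreas, stomach and Brunner's gland markers were all higher in replicate 1 too, and the 15 pancreatic ones had at least 6 counts each in replicate 2. The part of these tissues in the Cpt1a difference was not tested. Cpt2, which removes carnitine on the inner membrane, was far more abundant, with 229.9 TPM in replicate 2 and 379 TPM in replicate 1. Its scaled counts were 1.29-fold apart and not called. Cpt1a over Cpt2 was 0.0828 in replicate 2 and 0.150 in replicate 1, over all transcripts. Most of the Cpt2 TPM lay on a protein-coding transcript of 1015 nucleotides, with 127 TPM in replicate 2 and 261 TPM in replicate 1. The Cpt2 transcript of 2372 nucleotides had 103 TPM and 8777 counts in replicate 2, against 118 TPM and 10501 counts in replicate 1. On that longer transcript alone, Cpt2 stood less far above Cpt1a. Slc25a20, the carnitine-acylcarnitine carrier between them, had 32.2 TPM in replicate 2 and 29.9 TPM in replicate 1. Crat, the carnitine acetyltransferase that buffers acetyl-CoA, stood at 240.05 TPM in replicate 2, against 259.9 TPM in replicate 1, yet its scaled counts were 1.62-fold higher in replicate 2. A Crat transcript of 684 nucleotides had 7.96 TPM in replicate 2, against 69.4 TPM in replicate 1, the opposite way to the transcript of 3833 nucleotides with 92.4 TPM in replicate 2, against 47.3 TPM in replicate 1. Another, of 397 nucleotides, had 112 TPM in replicate 2, against 122 TPM in replicate 1. All 3 are annotated as protein coding.

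The promoter of Cpt1a is shown because Cpt1a is the called enzyme of the shuttle and its window holds the hexamer AGGTCA, the core of many nuclear receptor elements. RefSeq places the window, 250 bases before the start to 50 after it, at chr19:3323051-3323350 on the plus strand (GRCm38.p6), and capitals mark the hexamer read on the opposite strand, TGACCT, whose first base lies at -94 from the start.
Cpt1a promoter: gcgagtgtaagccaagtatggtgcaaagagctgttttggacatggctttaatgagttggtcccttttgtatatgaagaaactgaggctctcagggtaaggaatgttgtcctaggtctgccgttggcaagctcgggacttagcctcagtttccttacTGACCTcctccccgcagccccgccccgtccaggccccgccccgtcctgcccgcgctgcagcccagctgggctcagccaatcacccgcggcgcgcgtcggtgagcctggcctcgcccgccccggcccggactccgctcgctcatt
AGGTCA was searched on both strands of these windows, and 4 of the 32 windows of members held it (12.5%), those of Slc27a2, Acadm, Acadvl and Cpt1a. Over all 32851 windows the share was 16.3%. A direct repeat of AGGNCA with any 1 base between the copies, the form known to bind Ppara with its partner receptor, occurred in 0 of 32 member windows and in 0.381% of all windows. The AGGTCA search counts any match inside that longer repeat as well. A window was matched for 30 of the 35 members, and these are letters in a short window, not measured binding.

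In mitochondrial beta-oxidation 0 of 10 members were called, and the summed level was 834 TPM in replicate 2 and 811 TPM in replicate 1 (mean 822 ± 16.3 TPM, SD, n = 2). Hadh, the short chain hydroxyacyl-CoA dehydrogenase, was the most abundant, with 361 TPM in replicate 2 and 308 TPM in replicate 1. The acyl-CoA dehydrogenases, which take the first step and are graded by chain length, were uneven. Acadvl (very long) had 111 TPM in replicate 2 and 118 TPM in replicate 1. Acads (short) had 97.4 TPM in replicate 2 and 111 TPM in replicate 1. Acadm (medium) and Acadl (long) stood far lower. Acadm had 13.5 TPM in replicate 2 and 13.8 TPM in replicate 1. Acadl had 9.71 TPM in replicate 2 and 17.7 TPM in replicate 1. On protein-coding transcripts Acadvl had 43.9 TPM in replicate 2 and 35.5 TPM in replicate 1, since a retained-intron transcript of 538 nucleotides carried 52.2 TPM in replicate 2 and 50.3 TPM in replicate 1.

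Acaa2, the mitochondrial thiolase of the last step, had 69.6 TPM in replicate 2 and 102 TPM in replicate 1. Eci1, an isomerase for unsaturated chains, had 74.5 TPM in replicate 2 and 52.6 TPM in replicate 1. Decr1, the dienoyl-CoA reductase for the same substrates, was the lowest of the 10 beta-oxidation genes, with 2.63 TPM in replicate 2 and 3.90 TPM in replicate 1. Eci1 was thus present at many times the level of Decr1 in both libraries, and both differed by less than 2-fold between them.

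Hadha and Hadhb encode the alpha and beta subunits of the trifunctional protein, which carries out the remaining steps for long chains. On chromosome 5 their genes are read in opposite directions, from start sites that RefSeq places 273 bases apart. In GENCODE M21 the Hadha gene begins at base 30155162 and Hadhb at 30155248. There the starts are closer, and part of the stretch marked below lies inside Hadha. The window of Hadhb is shown to let the shared stretch be seen: it lies at chr5:30155003-30155302 on the plus strand (RefSeq, GRCm38.p6), and the capitals mark the 228 bases that also lie in the window of Hadha.
Hadhb promoter: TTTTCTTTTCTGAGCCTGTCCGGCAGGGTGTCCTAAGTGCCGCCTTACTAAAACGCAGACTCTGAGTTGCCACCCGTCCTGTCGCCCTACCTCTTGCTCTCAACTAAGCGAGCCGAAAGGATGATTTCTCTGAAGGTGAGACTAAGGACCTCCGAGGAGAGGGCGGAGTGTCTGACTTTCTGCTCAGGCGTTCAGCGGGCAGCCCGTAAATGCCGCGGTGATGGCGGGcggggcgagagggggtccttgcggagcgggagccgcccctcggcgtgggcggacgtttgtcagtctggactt
Of the pair, Hadha had 52.7 TPM and 6748 counts in replicate 2 and 56.7 TPM and 7027 counts in replicate 1. Hadhb had 41.6 TPM and 1299 counts in replicate 2 and 27.8 TPM and 1660 counts in replicate 1. Its TPM was thus higher in replicate 2, while its scaled counts were 1.10-fold higher in replicate 1. A retained-intron transcript of 507 nucleotides held 28.3 TPM of Hadhb in replicate 2 and 7.13 TPM in replicate 1, and protein-coding transcripts of Hadhb alone had 13.4 TPM in replicate 2 and 20.6 TPM in replicate 1. The level of Hadha over Hadhb was 1.27 in replicate 2 and 2.04 in replicate 1 over all transcripts, but 3.27 in replicate 2 and 1.77 in replicate 1 over protein-coding transcripts. Hadha stood above Hadhb in both libraries, and which library had the wider gap depended on the transcripts counted.

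**Figure D3:**
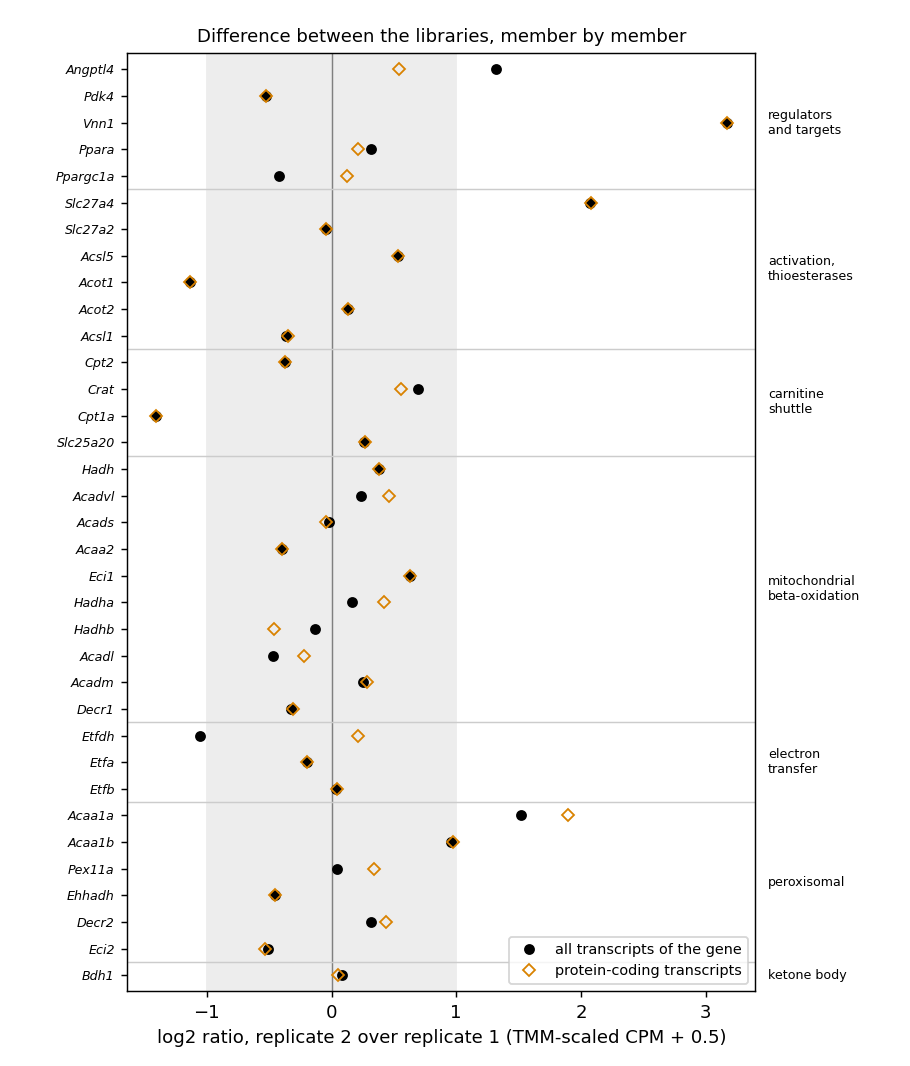
Log2 ratio of each member, replicate 2 over replicate 1, on TMM-scaled CPM plus 0.5, over all transcripts (filled circles) and over protein-coding transcripts only (open diamonds). The grey band spans a 2-fold difference in either direction. Circles and diamonds lie apart for Etfdh, at -1.05 and 0.21, and for Angptl4, at 1.32 and 0.54.

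Electron transfer from beta-oxidation to the respiratory chain runs through Etfa and Etfb, the subunits of the electron transfer flavoprotein, and Etfdh, the membrane enzyme that hands the electrons to ubiquinone. Etfa had 34.8 TPM in replicate 2 and 44.3 TPM in replicate 1. Etfb had 25.9 TPM in replicate 2 and 27.5 TPM in replicate 1. Etfa stood 1.34 times above Etfb in replicate 2 and 1.61 times in replicate 1, and neither was called. Etfdh (chr3:79603788-79629500) had 122 TPM and 1699 counts in replicate 2, against 363 TPM and 4137 counts in replicate 1, which was 2.09-fold higher in replicate 1 (95% interval 1.97 to 2.21). That call came from transcripts that are not annotated as protein coding. A processed transcript of 357 nucleotides held 109 TPM and 623 counts in replicate 2, against 345 TPM and 2385 counts in replicate 1. A retained-intron transcript of 3740 nucleotides held 59.7 counts in replicate 2, against 690 in replicate 1. The protein-coding transcript had 10.02 TPM and 860 counts in replicate 2, against 9.63 TPM and 862 counts in replicate 1, with a log2 ratio of 0.21, so the direction turned round and no call was left.

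The 357-nucleotide Etfdh transcript has 2 exons. Its first exon, 222 bases, lies wholly within exon sequence of the protein-coding transcript of 2377 nucleotides. Fragments from there cannot by themselves tell these 2 transcripts apart. Its second exon, 135 bases at chr3:79628267-79628401 on the minus strand (mm10), overlaps no exon of that protein-coding transcript. It is printed because it sets the abundant form apart from that transcript. Its overlap with the retained-intron transcripts of the gene was not examined.
Etfdh short transcript, exon 2: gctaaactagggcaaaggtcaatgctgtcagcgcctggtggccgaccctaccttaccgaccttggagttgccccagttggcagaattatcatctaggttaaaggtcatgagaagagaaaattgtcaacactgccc
Read as in the gene table, Etfdh was the most abundant of the 3 electron transfer genes in both libraries, and on protein-coding transcripts it was the least abundant, with 10.02 TPM in replicate 2 and 9.63 TPM in replicate 1. Summed over the 3 genes, protein-coding transcripts gave 69.9 TPM in replicate 2 and 80.3 TPM in replicate 1, against 183 TPM in replicate 2 and 435 TPM in replicate 1 over all transcripts.

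Peroxisomal members were dominated by Acaa1a, the thiolase that completes each peroxisomal round (chr9:119339676-119350299). It had 1646 TPM and 57967 counts in replicate 2, against 570 TPM and 23576 counts in replicate 1, and ranked 79th of all genes by TPM in replicate 2 and 205th in replicate 1. The scaled ratio was 2.87-fold higher in replicate 2 (95% interval 2.83 to 2.91). On protein-coding transcripts it had 767 TPM in replicate 2, against 178 TPM in replicate 1, a ratio of 3.72-fold on scaled counts. A retained-intron transcript of 917 nucleotides held 836 TPM in replicate 2 and 349 TPM in replicate 1. Among the protein-coding ones, a transcript of 646 nucleotides had 356 TPM in replicate 2, against 25.2 TPM in replicate 1. The protein-coding transcript of 1762 nucleotides had 400 TPM in replicate 2, against 137 TPM in replicate 1. On the opposite strand Acaa1a overlaps Myd88, which had 1325 counts in replicate 2 and 965 in replicate 1, and Slc22a14, which had 4 counts in replicate 2 and 2 in replicate 1. In all, 7 members overlap a protein-coding gene on the opposite strand, the longest overlap being that of Acsl5 with Zdhhc6, over 26430 bases. Zdhhc6 had 290 counts in replicate 2 and 369 in replicate 1. The libraries were stranded, but no source used here states whether the strand entered the counting.

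Acaa1b, whose first 90 coding bases differ from those of Acaa1a at 3 positions, had 89.0 TPM and 5134 counts in replicate 2, against 51.7 TPM and 3066 counts in replicate 1. Its ratio of 1.95-fold lay just under the limit and in the direction of Acaa1a. Fragments that fit both genes were shared out between them, so the level of Acaa1b beside a copy this abundant is uncertain.

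The other peroxisomal members were low and none was called. Ehhadh, the bifunctional hydratase and dehydrogenase, had 15.7 TPM in replicate 2 and 24.1 TPM in replicate 1. Decr2, the peroxisomal reductase for unsaturated chains, had 15.4 TPM in replicate 2 and 19.95 TPM in replicate 1. Eci2, an isomerase for the same substrates, had 9.61 TPM in replicate 2 and 15.5 TPM in replicate 1. Pex11a, a membrane protein of peroxisome division, had 16.2 TPM in replicate 2 and 24.4 TPM in replicate 1. These 4 were lower in TPM in replicate 2, but on scaled counts Decr2 and Pex11a were 1.25-fold and 1.03-fold higher there.

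Bdh1, the mitochondrial enzyme that interconverts acetoacetate and 3-hydroxybutyrate, was the only ketone body gene among the members. It had 115 TPM and 8663 counts in replicate 2 and 99.3 TPM and 9554 counts in replicate 1, and its protein-coding transcripts had 96.4 TPM in replicate 2 and 98.5 TPM in replicate 1. At 1.06-fold on scaled counts, it differed little between the libraries. Among 8 further ketone body genes, 0 were called higher in replicate 2 and 3 in replicate 1. The shares of all genes tested were 11.5% and 14.6%. Oxct1, which starts the use of ketone bodies, had 19.5 TPM in replicate 2, against 57.8 TPM in replicate 1, and its scaled ratio was 2.09-fold. Aacs, which activates acetoacetate, had 26.2 TPM in replicate 2 and 40.8 TPM in replicate 1, short of the limit. Replicate 1 had a liver marker sum of 65.9 TPM, while that of replicate 2 was 22.1 TPM. Most of it was Cps1, at 41.6 TPM in replicate 1 and 16.2 in replicate 2, and Ttr, at 21.8 and 4.01. Alb reached only 0.72 TPM in replicate 1 and 0.03 in replicate 2, with Fgb at 0 in both. The sum thus rested on Cps1 and Ttr, and whether their RNA came from liver was not tested. Of 6 liver markers tested, 1 (Cyp2e1) was called higher in replicate 2 and 4 in replicate 1. The part of liver in the ketone body differences was not tested.

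Of 88 further genes of the pathway, 83 were tested, 15 were called higher in replicate 2 and 12 in replicate 1, with a median log2 ratio of -0.01. For these and the lists within them, the shares of all genes tested to compare with were 11.5% and 14.6%. Of 22 other mitochondrial genes, the calls were 0 for replicate 2 and 4 for replicate 1. The largest by log2 ratio was Acss1, a mitochondrial acetyl-CoA synthetase, with 68.2 TPM in replicate 2, against 168 TPM in replicate 1. On protein-coding transcripts Acss1 had 7.85 TPM in replicate 2, against 27.4 TPM in replicate 1, and it was still called. Mlycd, which breaks down malonyl-CoA, the inhibitor of Cpt1a, had 76.6 TPM in replicate 2 and 55.6 TPM in replicate 1. Acad11, a dehydrogenase, had 53.3 TPM in replicate 2 and 76.5 TPM in replicate 1, short of the limit like Mlycd. Of 24 other peroxisomal genes tested, 4 were higher in replicate 2 and 1 in replicate 1. Acox2, a bile acid and branched chain oxidase, had 20.5 TPM in replicate 2, against 6.25 TPM in replicate 1, or 3.68-fold. Mpv17l, a peroxisomal membrane protein, had 0.32 TPM and 22 counts in replicate 2, against 3.95 TPM and 99 counts in replicate 1. The abundant genes of that list were not called: Acot8, a peroxisomal thioesterase, had 159.6 TPM in replicate 2 and 173 TPM in replicate 1. On protein-coding transcripts the order of Acot8 turned round, with 97.2 TPM in replicate 2 and 69.2 TPM in replicate 1. Phyh, which starts the oxidation of phytanic acid, had 113 TPM in replicate 2 and 171 TPM in replicate 1. Scp2, a thiolase and lipid carrier, had 129 TPM in replicate 2 and 84.9 TPM in replicate 1.

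Of other genes grouped as regulators and targets of the receptor family, 11 of 29 tested were called higher in replicate 2 and 4 in replicate 1. Their median log2 ratio was 0.33. That lean depended on the scaling, as 7 were higher in replicate 2 and 6 in replicate 1 by total counts and by spike-ins, with medians of 0.10 and 0.09. By deposited TPM, 7 were higher in replicate 2 and 8 in replicate 1. This list is not separate from the others. Fabp1 and Fabp2 were also counted as enterocyte markers, Cidec and Fabp4 as white adipocyte markers, and Acaca and Me1 in fatty acid and sterol synthesis. Cyp4a10, a fatty acid omega-hydroxylase known as a Ppara target, had 0.52 TPM and 38 counts in replicate 2, against 14.5 TPM and 1118 counts in replicate 1, 25.2-fold higher in replicate 1 (95% interval 18.3 to 35.8). Sirt1, a deacetylase that acts on Ppargc1a, had 1.33 TPM in replicate 2, against 0.24 TPM in replicate 1, or 5.40-fold. Esrra, an orphan receptor of mitochondrial genes, had 586 TPM in replicate 2, against 326 TPM in replicate 1, and Cideb, a lipid droplet protein of enterocytes and liver, had 594 TPM in replicate 2, against 254 TPM in replicate 1. Ucp2, a mitochondrial carrier, was the most abundant of the list, with 923 TPM in replicate 2, against 2017 TPM in replicate 1, but its scaled ratio of 1.56-fold fell short of the limit. The target Cyp4a10 was higher in replicate 1 with Cpt1a and Acot1, while Vnn1 and Angptl4 were higher in replicate 2, so genes known as Ppara targets stood on both sides. The difference in Angptl4 was not called on its protein-coding transcript.

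**Figure D4:**
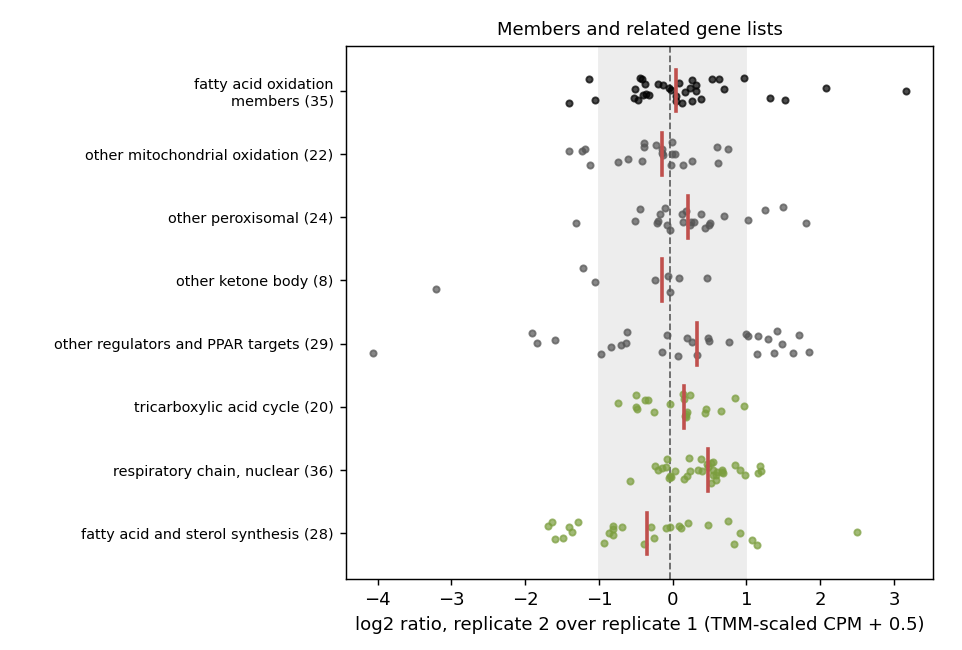
Log2 ratio, replicate 2 over replicate 1, on TMM-scaled CPM plus 0.5, of each tested gene in the members (black), other lists of the pathway (grey) and lists set beside them (green), with the number of genes in brackets. Red bars are medians, the dashed line is the median of all genes tested, and the grey band spans 2-fold in either direction. The members' median of 0.04 lies between -0.34 for fatty acid and sterol synthesis and 0.47 for the nuclear-encoded respiratory chain.

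The 3 lists of neighbouring pathways give a scale for the members. Over all genes tested, 11.5% were called higher in replicate 2 and 14.6% in replicate 1. Fatty acid and sterol synthesis had 3 of 28 genes higher in replicate 2 and 7 in replicate 1, with a median log2 ratio of -0.34. By total counts or spike-ins, 1 was higher in replicate 2 and 12 in replicate 1, and Fasn, the fatty acid synthase, was no longer called. Nuclear-encoded respiratory chain genes had 3 of 36 higher in replicate 2 and 0 in replicate 1, with a median of 0.47 and sums of 47690 TPM in replicate 2 and 34094 TPM in replicate 1. None of these calls was left by total counts or spike-ins, where the median was 0.24 and 0.23. The tricarboxylic acid cycle had 0 of 20 called and a median of 0.16, which was -0.08 by total counts and by spike-ins. By deposited TPM its median was -0.03, with 0 higher in replicate 2 and 1 in replicate 1. Sdha and Sdhb were counted both there and in the respiratory chain. Within synthesis, Scd1, the stearoyl-CoA desaturase, was 5.72-fold higher in replicate 2 and Fads1, a fatty acid desaturase, 3.29-fold higher in replicate 1. The members' median stood between these lists, and no test of one list against another was made.

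GC content moved with the members' levels. GC content was that of each gene's longest protein-coding transcript in GENCODE M21, which need not be the transcript that held most of the level. Across the 35 members it ran from 41.7% to 60.1%. Spearman's rho of GC content with TPM was 0.54 in replicate 2 and 0.53 in replicate 1, and with the log2 ratio it was 0.35. Over 10668 genes with a TPM of at least 1 the values were 0.34 in replicate 2, 0.32 in replicate 1 and 0.17 for the ratio. These are descriptions across genes that share 2 libraries. Acads, Acaa1a and Acaa1b were the members of highest GC content, and Ppargc1a that of the lowest.

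The direction of all 7 calls held under every scaling tried, while the side on which the uncalled members stood did not. Scaling by total counts or by ERCC spike-ins, synthetic RNAs added to each sample, moved the median log2 ratio of all genes by -0.20 and -0.21 and turned the sign of 6 members each, and deposited TPM moved it by -0.11 and turned 9. The call limit mattered more, as 7 members were higher in replicate 2 at 1.5-fold and 2 at 3-fold, Vnn1 and Slc27a4. No share over all genes was computed at those limits, so these counts have no background beside them.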

How the data were processed

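Per the text files beside the tables, the authors aligned reads to mm10 and quantified them against GENCODE M4. No source used here names the aligner or the quantifier. The deposited expected counts share out ambiguous fragments and are not normalised. The deposited TPM and FPKM were scaled by the authors for length and depth, and the deposited isoform percent is a transcript's share of its gene's TPM, per the file headers. Symbols, transcript types and positions came from GENCODE M21 by identifier (42462 of 43346 gene rows).

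Expected counts were rounded and scaled by TMM (edgeR 4.0.16, R 4.3.3). Exact binomial tests (scipy 1.17.1, statsmodels 0.14.6) were Benjamini-Hochberg adjusted over genes averaging 10 counts or more. Log2 ratios used a prior of 0.5 CPM. Intervals cover counting error only. Alternatives were other scalings, including DESeq2 1.42.0 size factors, filters, limits and units. Junction and contig lists in mm9 coordinates were not used here.

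The members and lists were chosen with earlier results of these data known. All members were named. Of other lists, the 3 genes of highest mean TPM and the call of largest log2 ratio in each direction were named. Some genes that this rule selects are not reported here.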

Additional observations from a re-analysis of the deposited data

How the results depend on the processing

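With 4 members higher in replicate 2 and 3 in replicate 1, counts were 5 and 3 with DESeq2 size factors, where Acaa1b passed the limit, and with deposited TPM, where Ppara did. They were 4 and 3 under total counts, ERCC spike-ins, TMM without pancreatic, gastric and Brunner's gland genes, posterior mean counts, a prior of 1 CPM, no filter and a mean count of at least 50. A 1.5-fold limit gave 7 and 3, and a 3-fold limit 2 and 0, with no share over all genes computed at either. Protein-coding transcripts gave 3 and 2, and there Etfdh had a log2 ratio of 0.21, against -1.05 over all its transcripts. The members' median log2 ratio ran from -0.20 with spike-ins to 0.13 on protein-coding transcripts. Summed TPM, 4036 as the mean, ran from 3362 to 4710 with either library left out, and was 2923 on protein-coding transcripts and 2355 without Acaa1a and Slc27a4. No paired analysis was possible because there is 1 group. The 2 libraries limit every comparison, and counting intervals do not cover the spread between animals.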
